A study of Sus scrofa with 8 samples.

Results

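Annexins are a family of 9 genes in the list examined here (ANXA1 to ANXA8 and ANXA11), and their RNA levels were compared between undifferentiated and differentiated cultures of pig skeletal muscle cells. Members were taken as the genes whose symbol in the deposited table equals a name of the list, which gave 7 of the 9 among 25285 genes: ANXA1, ANXA2, ANXA4, ANXA5, ANXA7, ANXA8 and ANXA11. ANXA6 carried no symbol there, but an Ensembl identifier table gives that name to ENSSSCG00000017089, so this row is described beside the 7 and kept out of their counts. ANXA3 matched no symbol and is not analysed here. The 8 libraries came from primary cells of strain LYD, 4 undifferentiated and 4 differentiated, with 2 libraries from females and 2 from males in each state. The labels name no allele and no drug, the protocol calls the cells MuSCs, and the age of the pigs, the culture media and the days in culture are not given in the sources used here. Nothing says that the 2 libraries of a group came from separate animals, so each p-value speaks only of the scatter among these 8 libraries, which may be technical.

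Annexins are cytosolic proteins that bind negatively charged phospholipids, mainly phosphatidylserine, when calcium rises. Each has a conserved core of annexin repeats and its own N-terminal tail, which binds partners such as S100 proteins. In muscle fibres they gather at breaks of the plasma membrane together with dysferlin and MG53 and take part in resealing, and outside repair they act in membrane traffic, in the link of membrane to actin and in plasminogen activation at the cell surface.

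The levels are FPKM (fragment counts divided by transcript length and by library size), so they can be set side by side between genes. The number of reads is unknown, and the estimated relative depth ran from 1.00 in differentiated female replicate 1 to 2.30 in undifferentiated female replicate 1. By this estimate every undifferentiated library (1.69 to 2.30) was deeper than every differentiated one (1.00 to 1.62), so depth and state cannot be told apart. The state labels matched the markers: MYOG, the myogenin of terminal differentiation, was at 40.5 to 130 FPKM in undifferentiated and 791 to 1519 FPKM in differentiated libraries, the actin ACTA1 at 0.417 to 1.28 and 3763 to 5179 FPKM, and the proliferation marker MKI67 at 26.9 to 44.9 and 2.57 to 8.57 FPKM. DES, the muscle intermediate filament desmin, was at 195 FPKM or more in every library, while TNNT3 and PAX7 were not analysed here. MYF5 matched no row under that symbol, but a row with the symbol MYF-5 fell between the states (log2 fold change -1.69, limma adjusted p = 0.000609). Of the marker lists for other cells, endothelial genes summed to 2.25 to 6.31 FPKM in undifferentiated and 2.56 to 7.53 FPKM in differentiated libraries (5 of 7 listed genes found, EMCN at 0). Immune genes summed to 12.3 to 17.1 and 4.18 to 6.42 FPKM (8 of 8 found, with LYZ at 0). CD14 made most of the undifferentiated immune sum and was lower in differentiated libraries (11.5 to 15.2 and 1.74 to 2.46 FPKM). CD3E went the other way (at most 0.129 and 0.469 to 2.41 FPKM). Schwann cell genes summed to 4.30 to 7.21 and 2.34 to 4.16 FPKM (5 of 6), and adipocyte genes to at most 0.499 and 1.69 FPKM (3 of 6). Fibroblast genes summed to 107 to 322 FPKM in undifferentiated and 431 to 1131 FPKM in differentiated libraries (7 of 8, mostly COL1A1 and COL3A1). The others were low: DCN was at most at 5.86 and 21.3 FPKM, LUM at 0.704 and 6.37, PDGFRA at 0.533 and 4.50, FAP at 0.630 and 3.72 and TCF21 at 1.73 and 1.01. Genes of pericytes and smooth muscle summed to 74.2 to 109 and 1205 to 1426 FPKM (8 of 8, with MYH11 at most at 0.0931 FPKM). In undifferentiated libraries MCAM made the largest part of that sum (40.5 to 49.2 FPKM). In differentiated ones it was mostly ACTA2 (993 to 1166 FPKM) and TAGLN (85.4 to 147 FPKM). Epithelial genes summed to at most 0.349 and 21.1 to 36.7 FPKM (5 of 6, nearly all of it CDH1 in differentiated libraries). The endothelial sums overlapped between the states, while the sums of the other lists moved with the state. S100B made most of the Schwann cell sum in undifferentiated libraries and is also in the S100 list below. The part of these lists in the annexin values was not tested. In bulk cultures fewer cells of a type and less RNA per cell cannot be told apart.

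In the deposited FPKM the summed level of the 7 members was lower in differentiated cultures, and its make-up differed. Summed over the 7 members, the level was 2794 and 2385 FPKM in undifferentiated females, 2659 and 2507 FPKM in undifferentiated males, 1449 and 1382 FPKM in differentiated females and 1567 and 1446 FPKM in differentiated males (replicates 1 and 2 in that order, as in all values that follow). The 4 differentiated sums were all below the 4 undifferentiated ones. The same held with the ANXA6 row added (1631 to 1803 against 2557 to 2961 FPKM). The sums were not recomputed under another scaling. Of the 7 members, 5 fell (ANXA1, ANXA2, ANXA4, ANXA5 and ANXA11), 0 rose, and ANXA7 and ANXA8 did not pass (limma, adjusted p under 0.05 over 12963 tested genes, averaged over the sexes). Over all tested genes 31.9% fell and 18.0% rose, 50.0% in all, and the median log2 fold change was -0.18 against -0.73 over the 7 members. The 5 that fell also had all differentiated libraries below all undifferentiated ones, which held for 30.2% of tested genes. ANXA6, outside that count, rose.

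That count depends on the scaling of the libraries. Median-ratio scaling, which sets the typical gene to no change, moved the median of all genes to 0.02 and the calls over all genes from 2339 that rose and 4137 that fell to 3220 and 2920. Under it, and under quantile normalization, 3 members fell: ANXA1, ANXA5 and ANXA11.

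**Figure D1:**
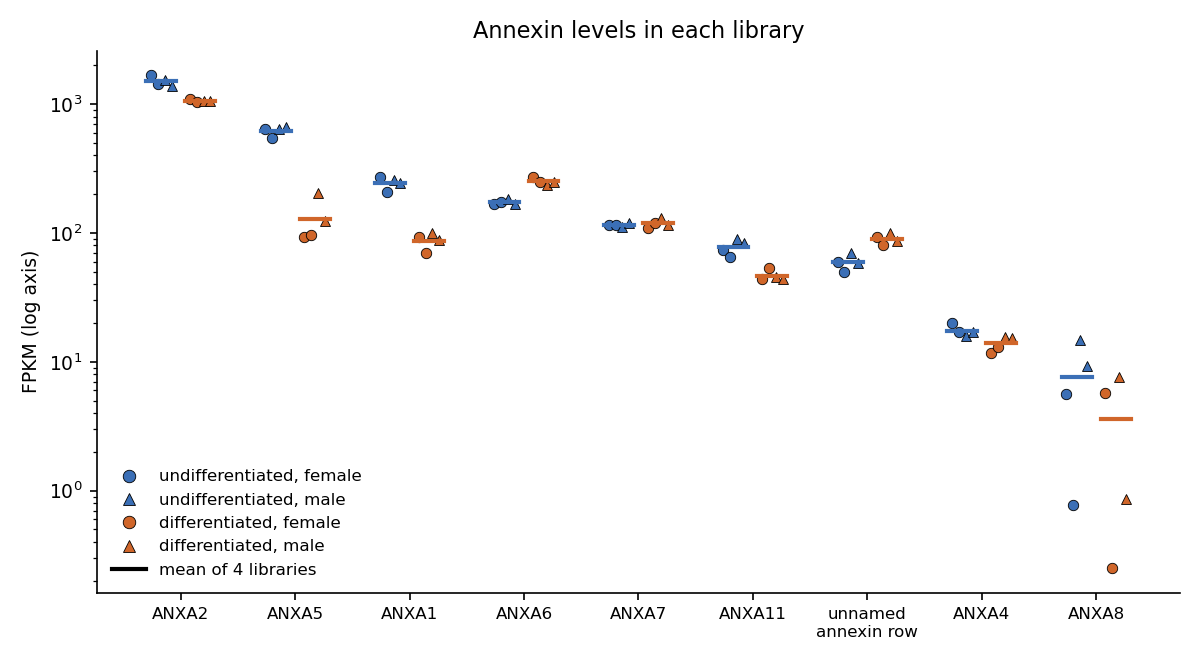
FPKM of each annexin row (log axis) in undifferentiated (blue) and differentiated (orange) libraries, with circles for females, triangles for males and bars for the mean of 4 libraries. ANXA5 and ANXA1 drop between the states, ANXA6 and the unnamed annexin row climb, and ANXA8 is scattered from 0.251 to 14.8 FPKM.

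ANXA5, the annexin used as a probe for exposed phosphatidylserine and known to form lattices on damaged membrane, changed most among the 7. Its level was 638 and 548 FPKM in undifferentiated females and 637 and 664 FPKM in undifferentiated males, against 92.5 and 97.1 FPKM in differentiated females and 203 and 124 FPKM in differentiated males. Every differentiated library was far below every undifferentiated one, and differentiated male replicate 1 stood above the other 3. ANXA5 (ENSSSCG00000009097, chromosome 8, 109609049 to 109642588, plus strand, Sscrofa10.2) fell from 622 ± 50.6 to 129 ± 51.2 FPKM (SD, n = 4), 4.82-fold between the means (log2 fold change -2.33 ± 0.167 SE, limma adjusted p = 0.000199). The call held in 16 of 16 alternatives, with log2 fold changes from -2.51 to -2.10. The lowest, -2.51, came without differentiated male replicate 1. In that library all 7 fibroblast genes found were higher than in the other 3 differentiated libraries, by unequal margins. PDGFRA was at 4.50 against 0.570 to 1.15 FPKM, COL3A1 at 312 against 247 to 307 FPKM. It also held the highest differentiated value of 5 of 8 pericyte and smooth muscle genes and of 2 of 7 immune genes detected. MKI67 was at 8.57 against 2.57 to 3.68 FPKM and TOP2A at 19.1 against 4.94 to 7.24 FPKM, and CCNA2 was also highest there. Of the muscle markers, MYOG (791 against 1054 to 1519 FPKM) and MYH3 (3490 against 4283 to 5098 FPKM) were lowest in that library. ACTA1 (3763 against 4247 to 5179 FPKM) and MYOD1 (80.1 against 97.2 to 105 FPKM) were lowest there too, though MYOD1 fell between the states. CKM and DES were lowest in differentiated male replicate 2. Whether male replicate 1 was less differentiated was not tested. The share of all genes highest in that library was not computed, and a link of these genes to the ANXA5 value was not tested.

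ANXA1, a phospholipase inhibitor and a ligand of formyl peptide receptors once released, fell next most. It was at 274, 206, 257 and 243 FPKM in undifferentiated libraries (females, then males) and at 92.2, 69.5, 99.0 and 88.6 FPKM in differentiated ones. The groups did not overlap, and replicate 2 of the females was the lowest library in both states. ANXA1 (ENSSSCG00000005267, chromosome 1, 252989614 to 253007803, plus strand) fell from 245 ± 28.8 to 87.3 ± 12.7 FPKM (SD, n = 4), 2.80-fold between the means (log2 -1.48 ± 0.139 SE, limma adjusted p = 0.000491), and the call held in 16 of 16 alternatives.

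ANXA11, which has a long disordered N-terminal tail and tethers RNA granules to lysosomes, also fell in every setting tried. Its 4 undifferentiated values were 73.9, 65.5, 89.8 and 83.4 FPKM, with the males above the females, and its differentiated values were 43.6, 53.0, 45.6 and 43.6 FPKM. ANXA11 (ENSSSCG00000010331, chromosome 14, 88448385 to 88490746, plus strand) went from 78.2 ± 10.7 to 46.5 ± 4.49 FPKM (SD, n = 4; limma adjusted p = 0.00166, log2 -0.73 ± 0.0976 SE; 16 of 16 alternatives).

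ANXA2, which binds actin and forms a heterotetramer with S100A10, was the most abundant annexin in every library. It stood at 1669, 1432, 1535 and 1371 FPKM in undifferentiated and 1095, 1031, 1065 and 1058 FPKM in differentiated libraries. In both states its mean exceeded that of 97.9% of tested genes, and the groups did not overlap. The coefficient of variation was 8.67% in undifferentiated and 2.49% in differentiated libraries. ANXA2 (ENSSSCG00000004578, chromosome 1, 123368016 to 123414408, plus strand) fell from 1502 ± 130 to 1062 ± 26.4 FPKM (SD, n = 4; limma adjusted p = 0.00901, log2 -0.50 ± 0.103 SE). This call ended under median-ratio scaling (log2 -0.27, adjusted p = 0.0662), and under quantile normalization the direction turned (log2 0.10, adjusted p = 0.81).

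ANXA4, an annexin best known from epithelia and vesicle membranes, was far less abundant. Undifferentiated libraries held 19.8, 16.98, 15.9 and 17.1 FPKM and differentiated ones 11.6, 13.1, 15.7 and 15.3 FPKM, so that the groups only just failed to overlap. ANXA4 (ENSSSCG00000008336, chromosome 3, 76060039 to 76128752, minus strand) fell from 17.4 ± 1.68 to 13.9 ± 1.93 FPKM (SD, n = 4; limma adjusted p = 0.0338, log2 -0.31 ± 0.0935 SE), a call kept in 6 of 16 alternatives. It ended under median-ratio scaling (adjusted p = 0.484), under quantile normalization (0.361), with no filter on low values (0.0543), with a replicate block (0.081) and without any 1 of 6 libraries (0.0620 to 0.102), all but replicate 2 of the undifferentiated and of the differentiated females.

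ANXA7, also called synexin, a calcium-dependent GTP-binding annexin of membrane fusion, showed no called change. It was at 114, 115, 110.4 and 119.5 FPKM in undifferentiated and 108, 119, 131 and 116 FPKM in differentiated libraries, with the groups overlapping (ENSSSCG00000010299, chromosome 14, 82330744 to 82360270, minus strand). The log2 fold change was 0.04 ± 0.0837 SE (limma adjusted p = 0.696), and 0.27 under median-ratio scaling (adjusted p = 0.0582). Ratios to ANXA7, chosen as the divisor after its values were seen, do not depend on a factor applied to a whole library, though quantile normalization can move them. The ratio of ANXA5 to ANXA7 went from 5.41 ± 0.451 to 1.07 ± 0.336, of ANXA1 from 2.13 ± 0.281 to 0.738 ± 0.111, of ANXA2 from 13.1 ± 1.42 to 9.004 ± 0.842, of ANXA11 from 0.682 ± 0.103 to 0.393 ± 0.0422, and of ANXA4 from 0.152 ± 0.0146 to 0.117 ± 0.0110 (SD, n = 4). None of these ratios overlapped between the states. They show unequal change of each pair only, since a rise of ANXA7 would lower them too.

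ANXA8, an annexin with anticoagulant activity best known from epithelia and endothelia, was the least abundant member and varied more between replicates than between states. It was at 5.67 and 0.777 FPKM in undifferentiated females, 14.8 and 9.32 FPKM in undifferentiated males, 5.70 and 0.251 FPKM in differentiated females and 7.67 and 0.858 FPKM in differentiated males. The SD was 77.3% of the mean in undifferentiated and 100.5% in differentiated libraries, against at most 39.7% for the other 6 members, ANXA6 and the unnamed annexin row. Replicate 2 was the lower library in females and in males, in both states. ANXA8 (ENSSSCG00000010370, chromosome 14, 95804112 to 95825709, minus strand) had a log2 fold change of -0.96 ± 0.787 SE (limma adjusted p = 0.349), which ranged from -1.56 to -0.35 over the alternatives.

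ANXA6, the large annexin with tandem cores that forms a cap at muscle membrane wounds, moved the other way. The row that the identifier table names ANXA6 (ENSSSCG00000017089, chromosome 16, 78094269 to 78115994, minus strand) was at 167, 173, 182 and 169 FPKM in undifferentiated and 271, 249, 236 and 250 FPKM in differentiated libraries. All differentiated values were above all undifferentiated ones, and the spread was small in both states. ANXA6 rose from 173 ± 6.48 to 252 ± 14.5 FPKM (SD, n = 4), 1.46-fold between the means (log2 0.54 ± 0.0786 SE, limma adjusted p = 0.00232), with log2 fold changes of 0.51 to 0.77 over 16 alternatives, all called. The next row of the table, 22226 bp away on the opposite strand, has no symbol and is described only as an annexin (ENSSSCG00000017090, chromosome 16, 78138221 to 78147207, plus strand). It was at 59.0, 49.4, 69.5 and 58.4 FPKM and at 92.6, 80.9, 99.2 and 86.6 FPKM, and it rose with a log2 fold change of 0.60 ± 0.112 SE (limma adjusted p = 0.00593), called in 16 of 16 alternatives. Its ratio to the ANXA6 row was 0.342 ± 0.0402 in undifferentiated and 0.358 ± 0.0420 in differentiated libraries (SD, n = 4), with the groups overlapping.

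**Figure D2:**
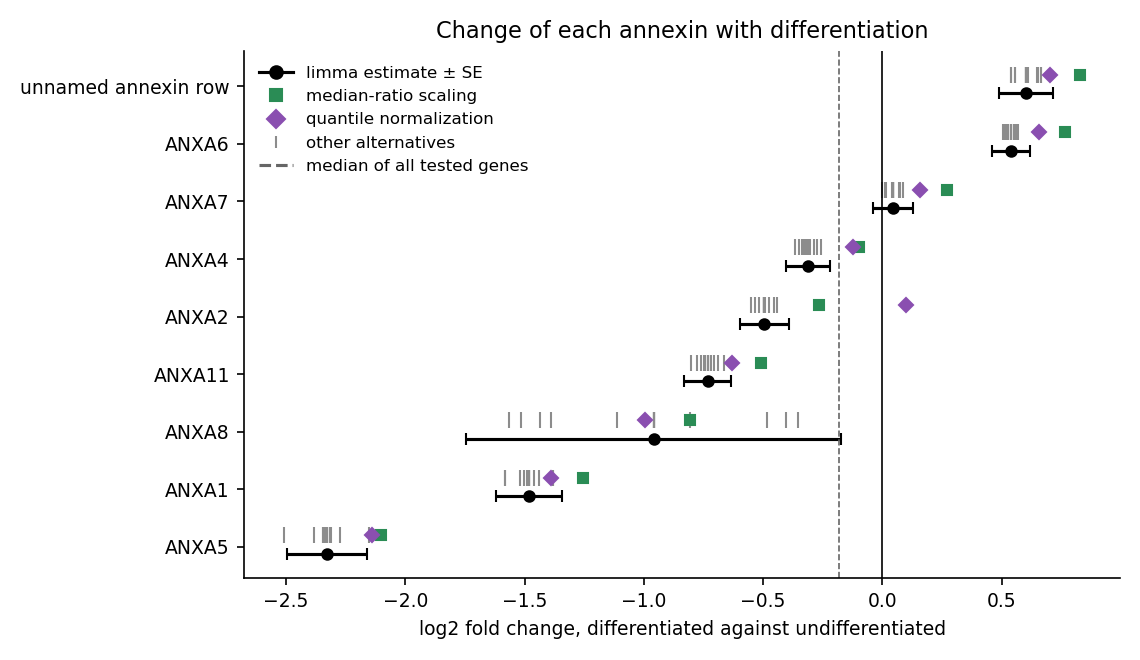
Log2 fold change of each annexin row between the states (black points, bars for the SE) and its value under median-ratio scaling (green), quantile normalization (purple) and the other alternatives (grey ticks), with the median of all tested genes at -0.18 as a dashed line. ANXA5, ANXA1 and ANXA11 stay below 0 and both rows at the top stay above 0, while ANXA2 moves from -0.50 to 0.10 under quantile normalization.

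The order of the annexins changed with these shifts. In undifferentiated cells it was ANXA2, ANXA5, ANXA1, ANXA6, ANXA7, ANXA11, ANXA4 and ANXA8, and no 2 neighbours overlapped over their 4 libraries. In differentiated cells ANXA6 stood in the place after ANXA2, followed by ANXA5, ANXA7, ANXA1, ANXA11, ANXA4 and ANXA8. There ANXA5 (92.5 to 203 FPKM) overlapped with ANXA7 (108 to 131 FPKM) and with ANXA1 (69.5 to 99.0 FPKM). Within a library ANXA5 was above ANXA1 in all 4, though only at 92.5 against 92.2 FPKM in differentiated female replicate 1. The ratio of ANXA5 to ANXA7 was 0.854, 0.818, 1.55 and 1.06, so the order of ANXA5 and ANXA7 is not settled. The ratio of ANXA6 to ANXA5 within a library was 0.262, 0.315, 0.286 and 0.255 in undifferentiated and 2.93, 2.56, 1.16 and 2.02 in differentiated libraries. ANXA5 thus had the higher level in all 4 undifferentiated libraries and ANXA6 in all 4 differentiated ones, with the smallest margin in differentiated male replicate 1.

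As a share of the summed level of the 7 members, which a factor applied to a whole library leaves as it is, ANXA2 made 58.0% ± 2.46 in undifferentiated and 72.8% ± 3.39 in differentiated libraries (SD, n = 4). ANXA5 made 24.1% ± 1.69 and 8.72% ± 2.96, ANXA1 9.44% ± 0.539 and 5.96% ± 0.631, and ANXA7 4.46% ± 0.394 and 8.12% ± 0.485. The share of ANXA11 was 3.02% ± 0.381 and 3.19% ± 0.432 with overlapping libraries, that of ANXA4 0.675% ± 0.0536 and 0.951% ± 0.110, and that of ANXA8 at most 0.555% in any library. With the ANXA6 row in the total, ANXA6 itself made 6.28% ± 0.460 in undifferentiated and 14.7% ± 1.15 in differentiated libraries, ANXA2 54.4% and 62.1%, and ANXA5 22.5% and 7.47%. So ANXA2 took a larger part of a smaller sum in differentiated cells, and the part that ANXA5 had held was much reduced. Sums and shares of members chosen as a family were not tested.

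**Figure D3:**
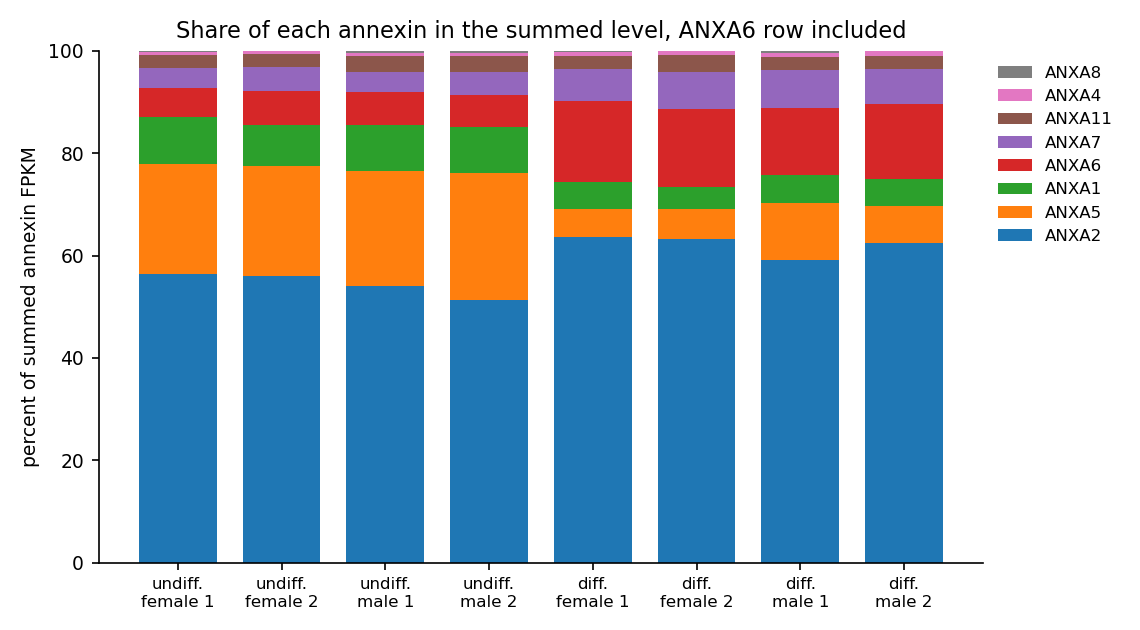
Percent of the summed FPKM of 8 annexins, the ANXA6 row included, in each library. ANXA5 (orange) shrinks from between 21.4% and 24.8% in undifferentiated to between 5.37% and 11.3% in differentiated libraries, and ANXA6 (red) grows from between 5.65% and 6.75% to between 13.1% and 15.8%.

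Both sexes were measured in each state, so the effect of differentiation could be compared between them. In females 5 of the 7 members fell (the same 5 as over both sexes; of all tested genes 23.3% fell and 12.5% rose, 35.8% in all), and in males 3 fell (ANXA1, ANXA5 and ANXA11; of all tested genes 20.1% fell and 12.9% rose, 33.0% in all). The difference of the effect between the sexes was called for 0 of the 7 members (limma; 0.0231% of all tested genes were called), and 1 had an unadjusted p under 0.05. That member was ANXA4, with a log2 fold change of -0.54 ± 0.132 SE in females and -0.08 ± 0.132 SE in males (difference -0.46 ± 0.187 SE, limma adjusted p = 0.808, unadjusted 0.0497). For ANXA5 the effects were -2.63 ± 0.237 SE in females and -2.03 ± 0.237 SE in males (difference -0.60 ± 0.335 SE, adjusted p = 0.826), and for ANXA11 -0.52 ± 0.138 SE and -0.94 ± 0.138 SE (difference 0.42 ± 0.195 SE, adjusted p = 0.815). ANXA6 rose in both, by 0.61 ± 0.111 SE and 0.47 ± 0.111 SE (adjusted p = 0.00854 and 0.0229). Between females and males averaged over the states, 0 of the 7 were called (limma; 0.0849% of all tested genes), and 1 had an unadjusted p under 0.05, ANXA5. Its level was lower in females (log2 -0.44 ± 0.167 SE, limma adjusted p = 0.501, unadjusted 0.0399). With 2 libraries a group, no difference between the sexes passed the test for these 7 genes, which does not show that the sexes were alike.

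Of 6 tested S100 genes whose proteins bind annexin tails, 5 fell and 1 rose, against 31.9% and 18.0% of all tested genes (median log2 fold change -0.95). S100A10, the partner of ANXA2, was at 357, 242, 333 and 320 FPKM in undifferentiated and 259, 183, 166 and 234 FPKM in differentiated libraries, with overlap (log2 -0.58 ± 0.195 SE, limma adjusted p = 0.0494). Its call ended in 9 of 16 alternatives, median-ratio scaling among them (adjusted p = 0.171). The ratio of ANXA2 to S100A10 was 4.87 ± 0.722 and 5.20 ± 1.01 (SD, n = 4), with overlapping libraries. S100A11, the partner of ANXA1, fell from 93.6 ± 25.5 to 48.8 ± 7.39 FPKM (limma, n = 4, adjusted p = 0.0189, log2 -0.89 ± 0.225 SE). Its libraries overlapped, with undifferentiated female replicate 2 at 56.0 and differentiated male replicate 2 at 58.6 FPKM. The call ended in 4 of 16 alternatives, median-ratio scaling among them (limma adjusted p = 0.0508). The ratio of ANXA1 to S100A11 went from 2.74 ± 0.630 to 1.81 ± 0.287 without overlap. S100A4, which also binds ANXA2, fell from 1568 ± 349 to 56.5 ± 15.3 FPKM (limma, n = 4, adjusted p = 7.71e-06, log2 -4.78). S100A6, which binds ANXA2 and ANXA11, was at 9.39, 7.52, 11.1 and 2.36 FPKM in undifferentiated libraries and is listed at 0 in all differentiated ones (limma adjusted p = 0.00186). S100A1, the S100 protein of striated muscle and a partner of ANXA6, was the one that rose, from at most 2.27 FPKM, with 2 libraries at 0, to 39.9 to 89.9 FPKM (limma adjusted p = 0.000544). S100B, a partner of ANXA6, fell from 5.02 ± 1.49 to 2.04 ± 1.09 FPKM (limma, n = 4, adjusted p = 0.0187, log2 -1.02), a call lost without undifferentiated female replicate 1, undifferentiated male replicate 2 or differentiated female replicate 2 (0.0591 to 0.0654). Without differentiated female replicate 2 the list had 2 falls in place of 5, and under median-ratio scaling 3.

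Other genes of membrane repair moved in both directions. Of 13 tested, 6 rose, 3 fell and 4 did not pass, against 18.0% that rose and 31.9% that fell of all tested genes (median log2 -0.08). CAPNS1, the calpain small subunit and 1 of the 3 falls (log2 -0.31, limma adjusted p = 0.0242), lost its call in 7 of 16 alternatives, median-ratio scaling among them (0.493). DYSF, dysferlin, the calcium sensor whose loss causes muscular dystrophy, was at 1.70, 1.43, 2.00 and 2.47 FPKM and rose to 53.6, 59.0, 47.5 and 52.8 FPKM (log2 4.23 ± 0.101 SE, limma adjusted p = 4.79e-06). Its relative MYOF, myoferlin, known from myoblasts, fell from 39.5 ± 7.35 to 14.6 ± 5.30 FPKM (limma, n = 4, adjusted p = 0.00164, log2 -1.41). TRIM72, the MG53 that starts vesicle recruitment at wounds, rose to 75.5 ± 13.1 FPKM (limma, n = 4, adjusted p = 4.48e-05, log2 5.00) and MURC, a caveolar coat protein of muscle, to 398 ± 33.4 FPKM (limma, n = 4, adjusted p = 1.97e-05, log2 5.42). EHD2, a caveolar ATPase, fell (log2 -0.70, adjusted p = 0.00347). AHNAK, a scaffold for ANXA2 with S100A10, was at 185 ± 26.5 and 165 ± 20.4 FPKM (limma, n = 4, adjusted p = 0.303, log2 -0.17).

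The ESCRT genes, whose products pinch off damaged membrane after annexins bind, moved in both directions: of 12 tested 4 rose, 5 fell and 3 did not pass (median log2 -0.06; 18.0% and 31.9% over all genes). Under median-ratio scaling 5 rose and 4 fell, as CHMP2A passed (limma adjusted p = 0.0216) and VPS4A did not (0.0934). TSG101 (log2 1.38, limma adjusted p = 0.0141) and CHMP5 (log2 0.80, 0.00138) rose, as did CHMP4B, the main filament subunit (log2 0.57, 0.0021). PEF1, a calcium-binding partner of ALG-2 (log2 -1.15, 0.00287), and the ATPase VPS4B (log2 -0.88, 0.00355) fell. The call of TSG101 ended without undifferentiated male replicate 1 (limma adjusted p = 0.0518).

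Of 7 tested genes that set the exposure of phosphatidylserine, the lipid annexins bind, 1 rose, 4 fell and 2 did not pass (median log2 -0.72), against 18.0% and 31.9% of all tested genes, and 3 fell under median-ratio scaling. Among the falls, the scramblase-family gene PLSCR4 lost its call in 10 of 16 alternatives and the flippase gene ATP11B in 3. ANO6, the calcium-activated scramblase of many cell types, fell from 110.0 ± 9.65 to 45.0 ± 6.56 FPKM (limma, n = 4, adjusted p = 0.000244, log2 -1.28), and its muscle relative ANO5, mutated in muscular dystrophy, rose from 1.57 ± 0.574 to 13.1 ± 3.54 FPKM (limma, n = 4, adjusted p = 0.000721, log2 2.45). In plasminogen activation 1 of 5 tested genes rose, 2 fell and 2 did not pass (median log2 -0.63; 18.0% rose and 31.9% fell over all genes). PLAT, the tissue activator that ANXA2 with S100A10 binds, rose (log2 0.81, limma adjusted p = 0.0181), and the urokinase PLAU fell from 126 ± 19.2 to 44.4 ± 6.11 FPKM (limma, n = 4, adjusted p = 0.000456, log2 -1.47). The call of PLAT ended in 3 of 16 alternatives, without undifferentiated male replicate 2, differentiated female replicate 1 or differentiated male replicate 2 (limma adjusted p = 0.0555 to 0.0576). Of the receptors of ANXA1 and the phospholipases A2, 1 gene was tested and did not pass (PLA2G6, log2 0.15, limma adjusted p = 0.487), PLA2G2A is listed at 0 in all libraries, and FPR1, FPR2 and FPR3 are not analysed here.

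**Figure D4:**
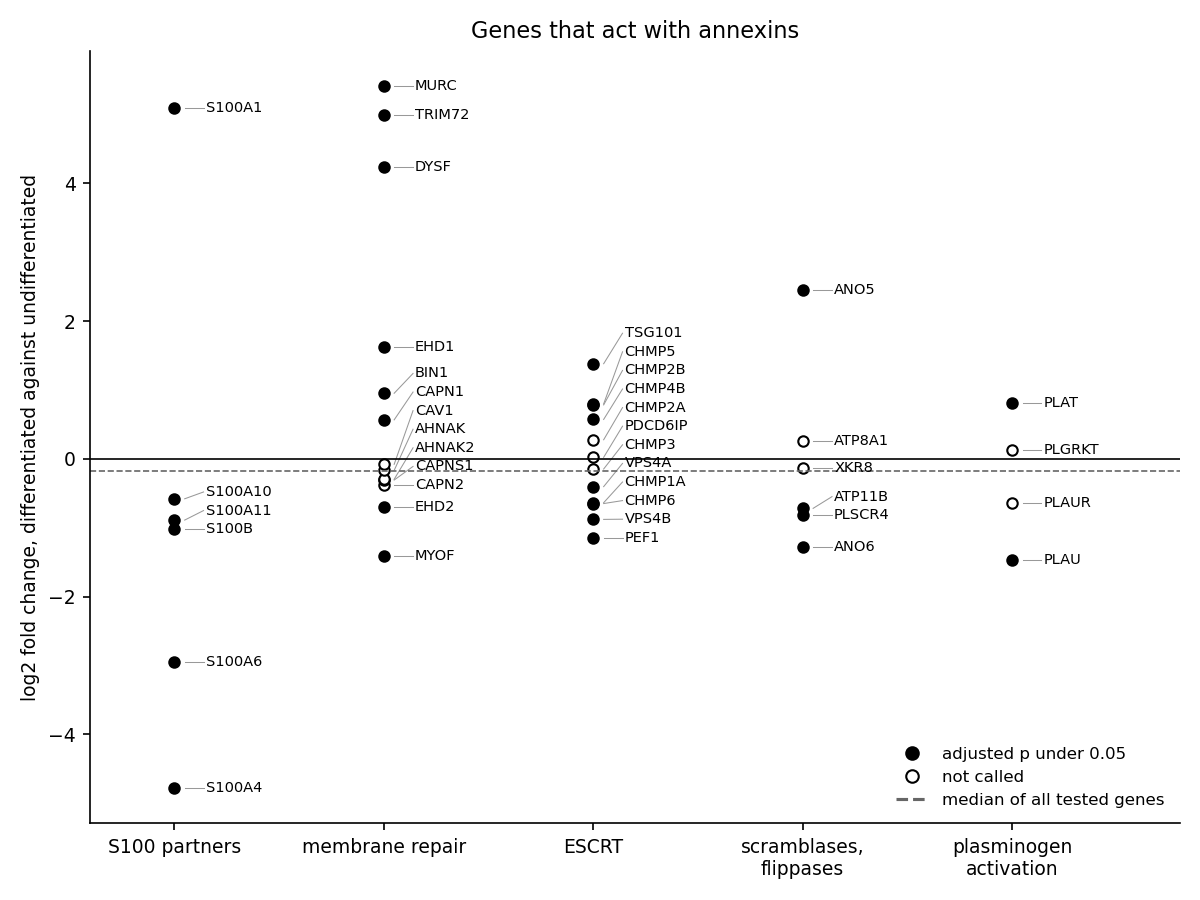
Log2 fold change between the states of tested genes of 5 lists, leaving out 2 that are not reported here (filled points passed the test, open points did not), with the median of all tested genes at -0.18 as a dashed line. S100A1, MURC, TRIM72, DYSF and ANO5 stand at the top and S100A4 and S100A6 at the bottom, and the ESCRT genes lie between -1.15 and 1.38.

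The genes most like each annexin over the 8 libraries were found among 10181 genes by the root mean square difference of log2 values after centring. Nearest to ANXA5 were CD109 (0.123), a surface protein that binds TGF-beta, which went from 39.5 to 6.65 FPKM, and COL15A1 (0.124), a basement membrane collagen, which went from 57.7 to 12.6 FPKM. Nearest to ANXA1 were RBPJ (0.0748), the transcription factor of Notch signalling, and MYL6 (0.0872), the non-muscle myosin light chain, and nearest to ANXA6 were ZMYM2 (0.0353) and ARHGAP35 (0.0405). ANXA2 was nearest to RBBP5 (0.0504) and MTA2 (0.0526), ANXA4 to FNIP1 (0.0678) and ADRBK2 (0.0723), ANXA7 to MGRN1 (0.0394) and GGNBP2 (0.0411), and ANXA11 to ZNF22 (0.0776) and IVNS1ABP (0.0827). ANXA8 had no close match, with THBD, thrombomodulin, at 0.673 as the nearest. All 8 libraries enter every distance, so the state difference is shared by these pairs and the distances are a description.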

How the data were processed

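RNA of 8 cultures was sequenced in 100-bp paired reads. The labels give polyA RNA as the molecule, while the protocol names a stranded total RNA kit. Gene levels are FPKM as the authors deposited them in 1 table, with cutadapt 1.6, TopHat2 2.0.12.1, Cufflinks 2.2.1 and Sscrofa10.2 named in the submitters' processing notes, which give no settings or scaling total here. All value columns belong to a sample (0 do not). No 2 libraries shared more than 1 gene with an equal value above 0, so none was taken as a duplicate.

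Of 25285 genes, 16274 have a symbol in the table, 1841 were named by an Ensembl identifier table and 7170 have none. Of repeated symbols the row with the highest mean was used (S100A11 has 2 rows). The 12963 genes whose mean reached 1 FPKM were tested on log2(FPKM + 1), so fold changes of low genes are understated, with limma 3.58.1 in R 4.3.3 (1 mean for each of 4 groups, no block, mean-variance trend, 4 residual degrees of freedom, two-sided, Benjamini-Hochberg over all tested genes). FPKM steps gave no whole reads. Relative depth was estimated from genes under 0.5 FPKM in each pair of libraries, and no interval can be given.

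Members and lists were chosen with earlier results of these data known. Named genes are all members, the 2 called genes of each partner list with the largest rise and fall, genes at 0 in all libraries and the 2 genes nearest in pattern to each member. S100A10, S100A11, S100B, DYSF, AHNAK, CAPNS1, CHMP2A, CHMP4B, VPS4A, PLSCR4, ATP11B and DES were named outside that rule, after their values were seen. Also outside it were the marker genes CD14, CD3E, CDH1, ACTA2, TAGLN, MCAM, MYH11, PDGFRA, COL1A1, COL3A1, DCN, LUM, FAP, TCF21 and MYF-5. So were MYH3, MYOD1, CKM, CCNA2 and TOP2A. The same holds for PLA2G6, PLA2G4A, ANXA9 and ANXA13. MYOG, ACTA1 and MKI67 were the state markers. Of the genes the rule names, 2 enter the counts of their lists but are not reported here by name. Alternatives were a pseudocount of 0.1 FPKM, no filter or 5 FPKM, median-ratio scaling, quantile normalization, a replicate block, no trend, genes spanning under 300 bp left out and the loss of each library.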

Additional observations from a re-analysis of the deposited data

How the results depend on the processing

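ANXA1, ANXA5, ANXA6, ANXA11 and the unnamed annexin row kept direction and call in 16 of 16 alternatives. Of the 7 members, 3 were called under median-ratio scaling and 3 under quantile normalization in place of 5, and 4 to 5 without any 1 library. ANXA2 turned to a log2 fold change of 0.10 under quantile normalization, and ANXA7, not called in any setting, went from -0.000703 (without differentiated male replicate 1) to 0.0864 when 1 library was left out. Without 1 library, the S100 list had 3 to 6 calls, the phosphatidylserine list 3 to 5 and the plasminogen list 1 to 3. With the ANXA6 row in the family total, an alternative chosen after seeing the data, the shares in undifferentiated and differentiated libraries were 8.85% and 5.08% for ANXA1 and 54.4% and 62.1% for ANXA2, and in differentiated libraries 0.812% for ANXA4, 6.93% for ANXA7 and 2.72% for ANXA11. The replicate block by sex and number left 4 members called (ANXA4 was lost, limma adjusted p = 0.081) and 2206 genes that rose and 3948 that fell. The numbers were not taken to pair libraries: deviations of same-numbered libraries from their group mean correlated at r = 0.0684 in females and -0.0264 in males, across genes. With deviations from the mean of each state, 2 of 4 differentiated libraries correlated best with their own number. Both were from females (r = 0.0306 and 0.0744). Where the cause of a change is not the loss of a library, the cause was not tested. Summing the rows of a symbol gave nothing to compare, since each member has 1 row. Read depth is unknown, so no counting error can be given.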

Other observations

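Of 4 further annexin genes, 3 were found, and none reached a mean of 1 FPKM. ANXA9 was at 0.337 to 0.451 FPKM in undifferentiated and 0.189 to 1.05 FPKM in differentiated libraries, and ANXA13 at 0 to 0.305 and 0 to 0.330 FPKM. ANXA10 is listed at 0 in all 8 libraries, and ANXA8L1 is not analysed here. In differentiated cells the calcium-activated phospholipase PLA2G4A, whose activity ANXA1 is known to restrain, was at 0.740, 1.07, 3.39 and 0.610 FPKM, with male replicate 1 highest, against 0.187 to 0.653 FPKM in undifferentiated cells. It was not tested, since its mean was under 1 FPKM.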
